A study of Mus musculus with 38 samples.

Results

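The comparison described here asks whether endothelial cells of the bone lining changed differently from its mesenchymal cells when mice carried myeloma. For each gene the change in endothelial cells (myeloma-bearing minus healthy) was taken, and the mean of the same change in stromal progenitors and in osteoprogenitors was subtracted. A positive difference means a larger rise, or a smaller fall, in endothelial cells. The rule named its libraries by cell type and by group of mice and used no measured value. It took in 28 of the 38 RNA-Seq libraries of the series, and left out the 10 libraries of myeloma cells. The 28 libraries were 10 of endothelial cells (EC), 10 of stromal progenitors (SP) and 8 of osteoprogenitors (OP), with 5, 5 and 4 libraries from healthy mice and the same numbers from myeloma-bearing mice. Mice of the C57Bl/KaLwRijHsd strain, 8 to 10 weeks old, received an intravenous injection of PBS, or of 1000000 5TGM1-GFP cells, a mouse plasma cell tumour line that carries green fluorescent protein, and all were culled on day 23. Endothelial cells were sorted from collagenase-digested bone as CD31+, stromal progenitors as Sca1+ALCAM- and osteoprogenitors as ALCAM+Sca1-, in aliquots of 100 cells. Their gates also excluded cells with CD45, carried by leukocytes, or Ter119, carried by erythroid cells. The tumour cells come from a transplanted line, and each aliquot is a small sample of its population. In such bulk libraries, fewer cells of a kind and less RNA per cell cannot be told apart.

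Type I interferons are antiviral cytokines that bind a receptor found on nearly all cells. Signalling through JAK kinases and STAT factors then induces a large set of effector genes, among them the Ifit, Mx and Oas families. Endothelial cells form the sinusoids and arterioles of the marrow and are exposed to blood-borne signals. Stromal progenitors and osteoprogenitors, the mesenchymal cells of the bone surface, give rise to osteoblasts, secrete factors that hold blood cells in the marrow, and make RANKL, the cytokine that drives osteoclast formation.

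Reads on genes ranged from 11991647 to 34883291 per library. The number of genes above 1 RPKM (reads scaled to gene length and library size) was 4501 to 7463 in healthy EC and 5937 to 7805 in EC of myeloma-bearing mice, against 6449 to 8789 in healthy and 6520 to 9096 in myeloma-bearing mesenchymal libraries. The lowest number, 4501, was in healthy EC replicate L. All 7 endothelial markers and all 10 osteoprogenitor markers had their highest mean level in their own cell type, and so had 4 of 6 stromal progenitor markers. Ly6a, which encodes Sca1, and Cxcl12 were highest in EC. Cdh5, the endothelial cadherin, was at 135 to 392 RPKM in EC and at most 2.39 RPKM in the mesenchymal libraries. Of cells that should be absent, lymphocytes had 0 of 15 markers in the table. Ptprc, the pan-leukocyte gene, was above 1 RPKM in 1 of the 28 libraries. The summed level of 10 of 19 macrophage and osteoclast markers in the table was 311 to 1981 RPKM in healthy and 712 to 1089 RPKM in myeloma-bearing EC, with the highest level in Fcer1g, an Fc receptor chain at 295 to 1978 RPKM in all 10 EC libraries. In mesenchymal libraries it was 103 to 1126 RPKM, with the highest level in Ctsk, cathepsin K. Lyz2, the macrophage lysozyme, was above 1 RPKM in 6 libraries (up to 211 RPKM), and Tyrobp, a myeloid adaptor, in 1 (287 RPKM). The plasma cell gene Igj reached 10.4 RPKM. Pf4, a platelet gene, was above 1 RPKM in 7 of 10 EC libraries (up to 236 RPKM) and in no mesenchymal library. The granulocyte gene S100a8 reached 4728 RPKM in SP healthy replicate L and 5174 RPKM in SP myeloma-bearing replicate E. The part of these transcripts in the results was not tested. The labels do not state that replicates came from separate mice, so p-values measure the spread between libraries.

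Over 11713 genes tested, no gene passed the test (limma, with an adjusted p after Benjamini and Hochberg under 0.1 and a log2 difference over 1 in size) in the endothelial minus mesenchymal change (0%), nor when EC were set against SP alone (0%) or against OP alone (0%). The lowest adjusted p was 0.285. At an unadjusted p below 0.05 there were 450 genes with a more positive change in EC (3.84%) and 258 with a more negative one (2.2%). The median difference over all genes was 0.06 on the log2(RPKM + 1) scale. The median unadjusted 95% interval of a single gene reached 2.25 to either side of its value. Differences below about that size could not be told from 0 for most genes, even before adjustment. After adjustment larger ones did not pass either, such as Snora78 at -7.11, so 0 calls do not mean that larger differences are absent. The 2 changes that make up the contrast had calls of their own. In EC 22 genes were called (0.188%), of which myeloma-bearing mice had 16 at a higher and 6 at a lower level. In the mean of SP and OP 7 genes were called (0.0598%), 5 up and 2 down. The count of 0 moved with the fit. With all 38 libraries in the fit, 25 genes passed, 17 more positive and 8 more negative in EC, and the median standard error was 0.978 in place of 1.10. The added libraries are of myeloma cells and are not part of the contrast. In this limma fit each difference therefore stayed the same, and only the estimate of its spread changed. Voom-limma on recovered reads over the same 38 libraries called 61 genes, and 23 of the 25 were among them, while on the 28 libraries alone it called 5. The EC change gave 154 calls by limma on 38 libraries, and 60 and 247 by voom-limma on 28 and 38. The mesenchymal change gave 21 by either fit on 38 libraries. Without EC healthy replicate O 14 genes passed, and 68 in the EC change. Shifting every library to the same median log2 value moved the median difference of all genes to -0.46 and turned the 450 and 258 genes at an unadjusted p below 0.05 into 167 and 579. It left 13 genes called in EC, 3 higher and 10 lower, of which 9 were among the 22. The median of a gene list is therefore to be set against that of all genes, 0.06 on the deposited scale and -0.46 after median scaling, and its counts at an unadjusted p below 0.05 against backgrounds of 3.84% positive and 2.2% negative.

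**Figure D1:**
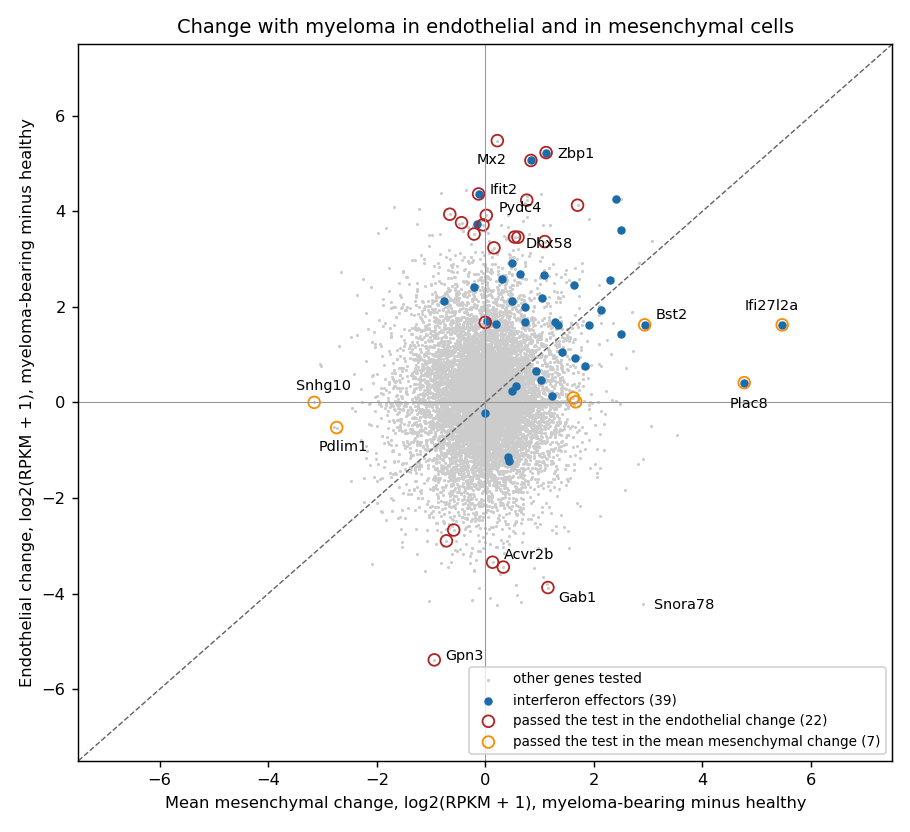
Change with myeloma in endothelial cells (y axis) against the mean change in stromal progenitors and osteoprogenitors (x axis), both as differences of mean log2(RPKM + 1), for 11713 genes. Blue points are 39 interferon effectors, red rings the 22 genes called in endothelial cells, orange rings the 7 called in mesenchymal cells, and the dashed line marks equal change. Ifit2, Mx2 and Zbp1 lie far above the line, and Ifi27l2a and Plac8 far below it.

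Of 39 interferon effectors tested, 8 had a more positive change in EC at an unadjusted p below 0.05 (background 3.84%) and 2 a more negative one (background 2.2%), and 0 were called. Their median difference was 0.41, which is 0.34 above the median of all genes. After median scaling it was -0.12, against -0.46 for all genes. The median change was 1.69 in EC and 1.02 in mesenchymal cells, against 0.02 and -0.01 over all genes, and an unadjusted p below 0.05 was reached by 16 genes in EC (background 5.13%) and by 11 in mesenchymal cells (background 2.19%), all of them higher with myeloma, while none was lower in EC (background 3.22%) or in mesenchymal cells (background 2.03%). In each component 3 of 39 effectors were called (background 0.188% in EC and 0.0598% in mesenchymal cells), and they were different genes. Those called in EC were Ifit2, Mx2 and Zbp1, and of these only Ifit2 was also called after median scaling and without EC myeloma-bearing replicate J. Of 41 alternative fits 39 called Ifit2 (all but a pseudocount of 0.1 and voom-limma on the 28 libraries), 37 called Mx2 and 36 called Zbp1. Fits without an SP or OP library leave an EC change as it is and alter only its spread and the genes tested. The same holds for a mesenchymal change in fits without an EC library. Those called in mesenchymal cells were Ifi27l2a, Plac8 and Bst2. Ifi27l2a was called in all 41 alternative fits and Plac8 in 35, with losses at a pseudocount of 0.1, without a filter and without OP healthy M or O, OP myeloma-bearing G or SP healthy O. Bst2 was called in 24, and its call was lost after median scaling, by voom-limma, without a filter and without any of 10 mesenchymal libraries.

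The promoters of the list were searched for the core of the interferon-stimulated response element, the sequence that interferon-activated factors bind, spelled here as GAAANNGAAA on either strand, with overlapping matches counted. RefSeq windows of 300 bases (250 before and 50 after a transcription start, GRCm38.p6) existed for 59 of the 79 interferon genes tested, and 27 of these genes held a match. By window this was 40.0% (28 of 70), against 3.44% of all 32851 windows. Stretches before the start are shown for Bst2, called in mesenchymal cells, for Cxcl10, the chemokine with the largest positive difference, and for Ifit1 and Ifit3, neighbours of Ifit2 on chromosome 19. The stretch of Ifit3 precedes a start that lies inside the annotated gene, and the others lie outside theirs. Each is read 5′ to 3′ on the strand of the gene, and capitals mark the matches.
Bst2 (chr8:71537557-71537632, minus strand): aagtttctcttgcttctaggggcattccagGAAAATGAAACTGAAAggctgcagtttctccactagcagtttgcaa
Cxcl10 (chr5:92349063-92349132, minus strand): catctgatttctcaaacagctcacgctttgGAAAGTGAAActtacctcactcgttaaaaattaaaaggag
Ifit1 (chr19:34640755-34640843, plus strand): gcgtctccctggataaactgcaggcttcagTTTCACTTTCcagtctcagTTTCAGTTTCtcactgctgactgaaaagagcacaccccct
Ifit3 (chr19:34583343-34583446, plus strand): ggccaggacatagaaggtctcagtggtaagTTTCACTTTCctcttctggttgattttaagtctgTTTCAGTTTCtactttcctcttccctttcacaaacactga
Bst2 and Ifit1 thus both hold the core, and neither of the 2 windows of Ifit2 holds these letters.

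Ifit2 (chr19:34550550-34576534), whose protein binds foreign RNA and blocks translation, had the largest positive difference of the effectors. In healthy EC it was at 0.0292, 0.0288, 3.32, 2.12 and 1.97 RPKM in replicates C, L, M, N and O. In EC of myeloma-bearing mice it was at 11.6, 59.6, 33.6, 81.4 and 70.3 RPKM in replicates D, E, G, I and J. The EC groups did not overlap. In SP it was at 3.10, 0, 4.86, 13.6 and 4.77 RPKM in healthy and at 0, 0.244, 9.31, 0 and 0.0286 RPKM in myeloma-bearing mice, and in OP at 0.932, 0, 0.0469 and 0.0275 RPKM and at 0, 11, 0 and 3.84 RPKM. Mesenchymal groups overlapped, with the lower median in myeloma-bearing SP. The log2(RPKM + 1) change was 4.36 ± 0.85 (SE) in EC (adjusted p = 0.0365) and -0.13 ± 0.64 in mesenchymal cells. The difference of 4.49 ± 1.06 (95% interval 2.32 to 6.66) had an adjusted p of 0.285, and with all 38 libraries in the fit of 0.0437 by limma and 0.234 by voom-limma, where it did not pass.

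Mx2 (chr16:97536081-97560901), annotated as a transcribed pseudogene in the C57BL/6J reference and a relative of the antiviral GTPase Mx1, was listed at 0 in 4 of 5 healthy EC libraries and at 0.0235 RPKM in replicate L. EC replicates D, E, G, I and J held 107, 51.8, 2.91, 26.9 and 67.2 RPKM. Among mesenchymal libraries it was above 1 RPKM in 7 of 18, from both groups of mice, with the highest values in SP myeloma-bearing replicate J (51.2 RPKM) and SP healthy replicate L (20.2 RPKM). Its change was 5.06 ± 1.05 in EC (adjusted p = 0.0499) and 0.84 ± 0.79 in mesenchymal cells, a difference of 4.22 ± 1.32 (adjusted p = 0.566). Zbp1 (chr2:173206612-173218959), a sensor of Z-form nucleic acid, followed the same order in EC, with 0 to 1.37 RPKM in healthy and 26 to 106 RPKM in myeloma-bearing mice. Mesenchymal Zbp1 ran from 0 to 21.8 RPKM and from 0.0178 to 58.5 RPKM, so those groups overlapped. Its EC change was 5.23 ± 1.11 (adjusted p = 0.0521), the mesenchymal change 1.12 ± 0.84 and the difference 4.11 ± 1.39 (adjusted p = 0.62). The other 5 effectors with a positive difference at an unadjusted p below 0.05 were Isg20 (3.90 ± 1.59), Mx1 (2.43 ± 1.03), Oas1b (2.28 ± 1.00), Ifi204 (2.04 ± 0.95) and Oas2 (1.46 ± 0.69). None of the 5 was called in either component.

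**Figure D2:**
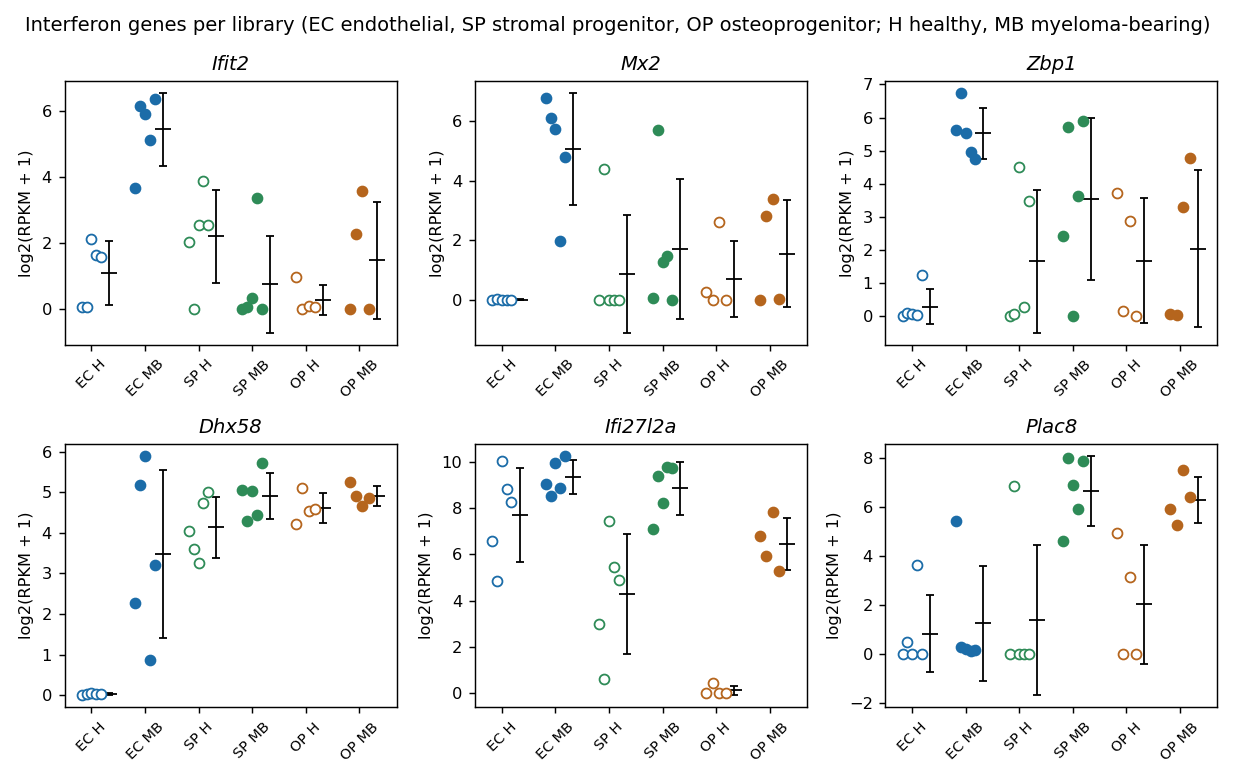
Level of 6 interferon genes in each of the 28 libraries, as log2(RPKM + 1) on the y axis, by cell type and group of mice (open points healthy, filled points myeloma-bearing). Bars give the mean and SD of each group. Endothelial groups do not overlap for Ifit2, Mx2, Zbp1 and Dhx58, and Dhx58 is above 8 RPKM in all 18 mesenchymal libraries.

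Of the nucleic acid sensors and interferon signalling factors, 3 of 26 tested had a positive difference at an unadjusted p below 0.05 (background 3.84%) and 0 a negative one, with a list median of 0.25, or 0.18 above all genes. Dhx58 (chr11:100694884-100704271), a RIG-I-like RNA sensor, differed between the cell types before myeloma. Healthy EC held 0, 0.0236, 0.0354, 0.0195 and 0.0171 RPKM in replicates C, L, M, N and O, while healthy mesenchymal libraries held 8.49 to 33.5 RPKM. In myeloma-bearing mice EC replicates D, E, G, I and J held 3.82, 58.8, 0.815, 8.30 and 35.5 RPKM, and mesenchymal libraries 18.6 to 51.6 RPKM. The EC groups were thus apart, and 2 EC libraries reached the mesenchymal range. The change was 3.46 ± 0.72 in EC (adjusted p = 0.0499) and 0.54 ± 0.54 in mesenchymal cells, a difference of 2.92 ± 0.91 (adjusted p = 0.564). Voom-limma called this difference on 28 and on 38 libraries (adjusted p = 0.00606 on 38), and limma on 38 libraries did not (adjusted p = 0.215). The EC call of Dhx58 was lost after median scaling, with library weights, with a pseudocount of 4 and without EC myeloma-bearing replicate E or J. Nlrc5, a transactivator of MHC class I genes, had a difference of 2.63 ± 0.92 and Tmem173, which encodes the DNA-sensing adaptor STING, one of 2.94 ± 1.38. Gm4951, a predicted interferon-inducible GTPase outside the lists and named after its values were seen, was called in EC, at 0 to 7.22 RPKM in healthy and 45.9 to 99.0 RPKM in myeloma-bearing mice. Interferon-inducible GTPases of the list had a median change of 0.90 in EC and 0.80 in mesenchymal cells, and 0 of 14 had an unadjusted p below 0.05 in the contrast.

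Pydc4 (listed by RefSeq as Ifi213, chr1:173566280-173599348), of the interferon-inducible PYHIN family of DNA-binding proteins, had the smallest p of all genes (3.28e-05, adjusted p = 0.285). It was at 0.0215, 0.0425, 0, 0 and 0 RPKM in healthy EC replicates C, L, M, N and O. It was at 0.0200, 75.7, 19.8, 15.6 and 29.7 RPKM in EC replicates D, E, G, I and J of myeloma-bearing mice. All 18 mesenchymal libraries were at or below 0.0843 RPKM. Replicate D was the only EC library of myeloma-bearing mice at the healthy level. The gene entered the test through the 4 other libraries alone, the only ones of the 28 above 1 RPKM, so its p is not independent of the filter on low values, although the EC call was kept without that filter. The EC change was 3.91 ± 0.64 (adjusted p = 0.00565, a call lost without any 1 of EC myeloma-bearing replicates E, G, I and J and with the stricter filter) and the difference 3.90 ± 0.80. Without EC replicate D this gene passed the test in the contrast, with the lowest adjusted p of that fit at 4.85e-06.

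Cxcl10 (chr5:92346638-92348889), a chemokine that attracts T cells, had the largest positive difference of the chemokine list, and it did not pass (3.11 ± 1.83, adjusted p = 0.837). Healthy EC held 16.6, 0, 144, 133 and 179 RPKM and myeloma-bearing EC 1317, 465, 247, 519 and 536 RPKM. The EC groups did not overlap, and the EC change of 3.88 ± 1.47 had an adjusted p of 0.427. Mesenchymal libraries ran from 0.0422 to 53.9 RPKM and from 0.182 to 236 RPKM. Ifit1 and Ifit3, named because their promoters are shown, were not called in either arm of the contrast. Ifit1 was at 0 to 116 and 87.6 to 257 RPKM in healthy and myeloma-bearing EC, and at 0 to 11.1 and 0.0608 to 78.1 RPKM in the mesenchymal groups, with a difference of 1.85 ± 1.53. Ifit3 was at 0.542 to 60.3 and 38.9 to 433 RPKM in EC and at 0 to 10.2 and 0 to 49.2 RPKM in mesenchymal cells. Its difference of 0.82 ± 1.61 turned negative with voom-limma.

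At the other end of the list the lowest differences were those of Plac8, Ifi27l2a and Trim25. Plac8 and Ifi27l2a rose in mesenchymal cells. Trim25, at -1.67 ± 1.23, joined an EC change of -1.24 with a mesenchymal change of 0.44. Ifi27l2a (chr12:103433873-103443680), an interferon-induced protein of mitochondria, was at 7.01, 0.506, 173, 42.5 and 28.5 RPKM in healthy SP and at 138, 299, 897, 856 and 673 RPKM in SP of myeloma-bearing mice (replicates D, E, G, I and J). In OP it went from 0, 0.342, 0 and 0 RPKM to 109, 229, 37.6 and 59.7 RPKM, with no overlap. EC already held 95.4, 27.9, 1051, 459 and 312 RPKM in healthy mice, and held 531, 1004, 466, 1243 and 374 RPKM in myeloma-bearing mice. The mesenchymal change was 5.47 ± 0.69 (adjusted p = 8.06e-05) and the EC change 1.62 ± 0.92, a difference of -3.85 ± 1.15 (adjusted p = 0.551). With all 38 libraries that difference had an adjusted p of 0.217 by limma and passed by voom-limma (adjusted p = 0.026). Bst2 (chr8:71534255-71537472), which encodes tetherin, a membrane protein that holds budding virus on the cell surface, had the same kind of background. It was at 80.9 to 687 RPKM in healthy EC against 0.229 to 34.3 RPKM in healthy mesenchymal cells. In myeloma-bearing mice the values were 410.3 to 1218 RPKM and 15 to 437 RPKM. Its mesenchymal change of 2.93 ± 0.60 was called (adjusted p = 0.0616), and the difference was -1.31 ± 1.00.

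Plac8 (chr5:100551589-100572253), a small cysteine-rich protein known from myeloid and lymphoid cells, was listed at 0 in 4 of 5 healthy SP libraries and at 116 RPKM in replicate L. SP replicates D, E, G, I and J of myeloma-bearing mice held 23.1, 118, 59.2, 236 and 253 RPKM. In OP it was at 29.4, 0, 7.81 and 0 RPKM in healthy and 59.0, 181, 83.5 and 37.5 RPKM in myeloma-bearing mice. EC stayed at or below 11.3 RPKM except for myeloma-bearing replicate D, at 41.9 RPKM. The mesenchymal change was 4.77 ± 0.94 (adjusted p = 0.0495), the EC change 0.41 ± 1.25 and the difference -4.36 ± 1.56 (adjusted p = 0.625). The 2 SP libraries with the most S100a8 held 116 and 118 RPKM of Plac8, and SP replicates I and J, with more Plac8, held 5.22 and 0.144 RPKM of S100a8. Granulocytes carry CD45, which the gate excluded, and the part of granulocyte transcripts in these values was not tested. H2-K1, a class I heavy chain, showed a smaller difference of the same sign (-0.94 ± 0.42). It was at 738 to 3155 RPKM in healthy EC and at 104 to 495 RPKM in healthy mesenchymal cells. It was the only member of 22 in the MHC class I list with an unadjusted p below 0.05, and the list median was -0.16. The MHC class II list had a median of -0.62, with 0 of 7 genes at that threshold.

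The number of effectors above 1 RPKM put these genes on a common scale. It was 18 to 28 of 39 in healthy EC and 31 to 36 in EC of myeloma-bearing mice, so these groups did not overlap. In SP it was 13 to 17 and 13 to 32, and in OP 12 to 18 and 14 to 36. Libraries of myeloma-bearing mice with few effectors were SP replicate I (13) and OP replicate D (14), which also held few genes above 1 RPKM in all (6520 and 6715). Myeloma-bearing SP replicates D, E, G and J held 19, 21, 32 and 31 effectors with 6889, 7781, 8035 and 7838 genes above 1 RPKM. OP replicates G, I and J held 36, 22 and 30 with 9096, 7535 and 8786. In EC, myeloma-bearing replicates D, E and I (6174, 5937 and 6629 genes) held 31, 35 and 35 effectors, but healthy EC already held 18 to 28, against 12 to 18 in healthy OP. The part of detection in these counts was not tested.

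**Figure D3:**
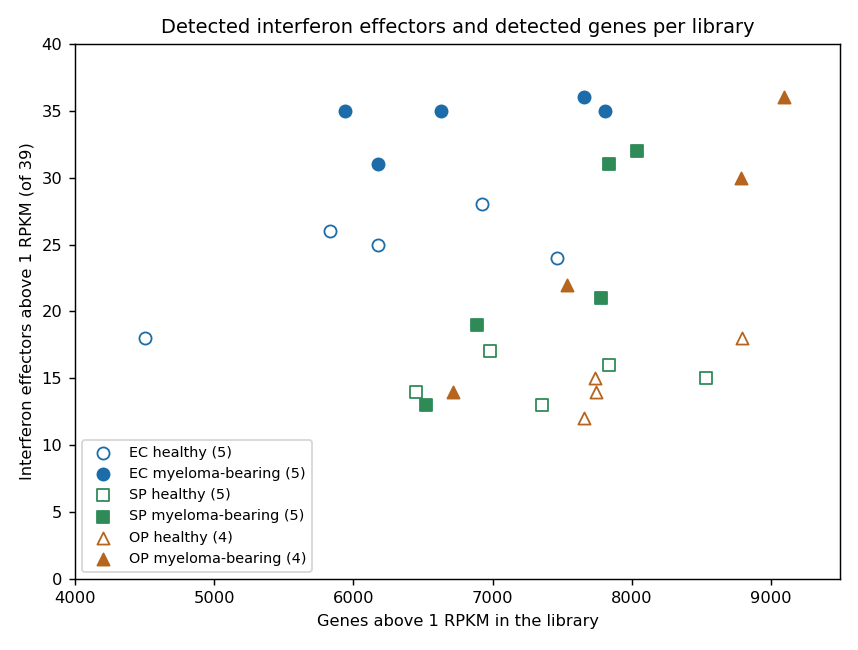
Number of interferon effectors above 1 RPKM (y axis, of 39) against the number of all genes above 1 RPKM (x axis) in each of the 28 libraries, with open symbols for healthy and filled symbols for myeloma-bearing mice. The 5 endothelial libraries of myeloma-bearing mice lie between 31 and 36 effectors, above the 5 healthy ones at 18 to 28, while mesenchymal libraries of myeloma-bearing mice spread from 13 to 36.

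Of 44 genes of DNA replication and the cell cycle tested, 8 had a positive difference at an unadjusted p below 0.05 (background 3.84%), 0 a negative one (background 2.2%), and 0 were called. The list median was 0.67, or 0.61 above all genes, and stayed positive after median scaling (0.14). It was made up of a median change of 0.57 in EC and -0.05 in mesenchymal cells. The 8 genes were Tyms, Mcm5, Mcm6, Cdk1, Tk1, Stmn1, Top2a and Ccna2, which act in nucleotide synthesis, in the replicative helicase and in mitosis. Tyms (chr5:30038546-30073645), thymidylate synthase, was at 8.39, 0.0299, 0, 0.0247 and 0 RPKM in healthy EC replicates C, L, M, N and O and at 0.0141, 19.8, 25.1, 23.3 and 0.0457 RPKM in myeloma-bearing replicates D, E, G, I and J. It was thus above 1 RPKM in 1 of 5 and in 3 of 5 EC libraries. Among mesenchymal libraries, 3 of 4 healthy OP held 8.43 to 14.7 RPKM and myeloma-bearing OP held 0.0330 to 1.64 RPKM, and the difference of 3.24 ± 1.16 joined a change of 2.09 ± 0.93 in EC with a mean mesenchymal change of -1.15, made up of -0.19 ± 0.93 in SP and -2.12 ± 1.04 in OP. Mcm5 (chr8:75109468-75128439), a helicase subunit, was at 0.152, 0, 0.0375, 2.85 and 0 RPKM in healthy EC and at 13.1, 0, 22.1, 8.2 and 12.6 RPKM in EC of myeloma-bearing mice, with a difference of 3.18 ± 1.04 (adjusted p = 0.591). Not all members went this way. Mcm3, of the same helicase, had a difference of -1.95 ± 1.13, and Rfc3, with the largest difference of the list (3.42 ± 1.85), missed an unadjusted p of 0.05. The number of the 58 listed genes above 1 RPKM was 12 to 24 in healthy EC and 20 to 39 in myeloma-bearing EC, with the highest number in replicate G, the EC library with the most genes above 1 RPKM (7805). Car2, carbonic anhydrase, called in EC (4.23 ± 0.90, adjusted p = 0.0521) and named after its values were seen, was at or below 0.0921 RPKM in healthy EC and at 44.6, 0.0310, 86.5, 13.9 and 42.1 RPKM in myeloma-bearing EC. The summed level of the 4 of 16 erythroid markers in the table was 0.0118 to 21.2 RPKM (median 0.0870) in healthy and 3.13 to 16.4 RPKM (median 11.6) in myeloma-bearing EC, with the highest level in Tfrc, the transferrin receptor. That of 12 of 16 plasma cell markers was 5.28 to 411 RPKM (median 38.4) and 24.3 to 203 RPKM (median 40.1), with the highest level in Fkbp11. Their part in these values was not tested.

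**Figure D4:**
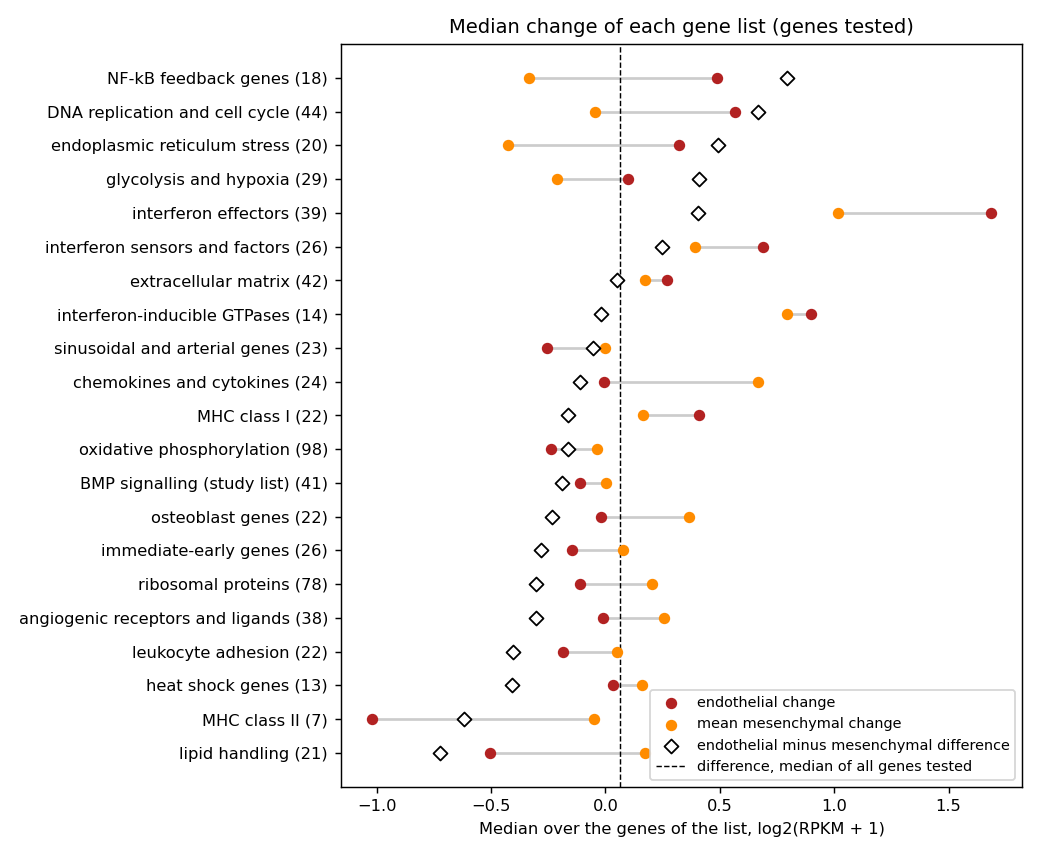
Median change of each gene list on the log2(RPKM + 1) scale (x axis), in endothelial cells (red) and mesenchymal cells (orange), with the median endothelial minus mesenchymal difference as a diamond and the number of genes tested in brackets. The dashed line is the median difference of all genes, 0.06. NF-kB feedback, cell cycle and endoplasmic reticulum stress genes lie to its right, and lipid handling genes farthest to its left.

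Genes of endoplasmic reticulum stress, which fold and quality-check secreted proteins, had a median difference of 0.49 (-0.04 after median scaling, against -0.46 for all genes). They had a median change of 0.32 in EC and -0.42 in mesenchymal cells, and 3 of 20 (Sdf2l1, Asns and Herpud1) had a positive difference at an unadjusted p below 0.05 (background 3.84%). Sdf2l1 (chr16:17130138-17132383), a partner of the chaperone BiP, was at 0.0521, 0.0514, 0.0386, 0 and 114 RPKM in healthy EC and at 13.5, 71.6, 10.0, 90.6 and 25.0 RPKM in myeloma-bearing EC. Only healthy replicate O reached the range of the myeloma-bearing libraries. In SP it was at 47.3 to 127 RPKM and at 0.181 to 57.8 RPKM, and in OP at 29.1 to 38.2 RPKM and at 0.113 to 58.8 RPKM. The change was 3.53 ± 1.17 in EC and -1.99 ± 0.88 in mesenchymal cells, and the difference of 5.52 ± 1.46 (adjusted p = 0.371) passed with all 38 libraries in the fit (adjusted p = 0.0671). Hspa5, which encodes BiP itself, had a difference of 0.44 ± 0.39 and Xbp1, a factor of the unfolded protein response, of 0.04 ± 0.53. Sec13 (chr6:113728052-113740681), a coat protein of vesicles that leave the endoplasmic reticulum, named after its values were seen, fell in EC from 160.4 to 999.9 RPKM in healthy to 11.7 to 98.0 RPKM in myeloma-bearing mice (change -2.90 ± 0.52, adjusted p = 0.0195). Its mesenchymal change was -0.72 ± 0.39 and the difference -2.18 ± 0.66.

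BMP signalling was followed over the list the study assembled, which it chose for these samples and which is therefore no independent evidence of a direction. BMP ligands bind pairs of type I and type II receptors that phosphorylate Smad factors. Of 41 genes tested, 1 had a positive (background 3.84%) and 3 a negative difference (background 2.2%) at an unadjusted p below 0.05, and the median was -0.19, or -0.25 relative to all genes. Both ends of the list were type II receptors. Acvr2b (chr9:119401583-119442148) was at 17.4, 3.98, 0, 34.9 and 50.9 RPKM in healthy EC and at 0, 0, 0.578, 0 and 0 RPKM in myeloma-bearing EC. It was above 1 RPKM in 1 of 18 mesenchymal libraries, OP myeloma-bearing replicate J (1.2 RPKM). Its fall in EC was called (-3.34 ± 0.65, adjusted p = 0.0365), and the difference was -3.48 ± 0.81 (adjusted p = 0.285, or 0.022 with all 38 libraries in the fit). Apart from that OP library, all libraries above 1 RPKM were healthy EC ones, so the gene passed the filter through the group where it was high. Its p is thus not independent of the filter on low values. The EC call was lost with the stricter filter and kept without one. Bmpr2 (chr1:59764279-59878081) was at 3.94, 2.0, 0, 0 and 0.0117 RPKM in healthy EC and at 0, 2.01, 33.4, 8.30 and 4.99 RPKM in myeloma-bearing EC. In OP it was at 11.4, 8.92, 5.14 and 0 RPKM in healthy and 0, 0.450, 0 and 0 RPKM in myeloma-bearing mice. Its difference was 2.89 ± 1.12 (adjusted p = 0.686). The third gene of the list with a negative difference was Bmpr1b, a type I receptor (-1.28 ± 0.61), with a change of 0.00 in EC and 1.28 ± 0.37 in mesenchymal cells. Bmp2, a ligand, had a difference of 1.79 ± 1.21.

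Tnfsf11 (chr14:78277446-78308043), which encodes RANKL and belongs to the BMP and the chemokine lists, was a mesenchymal gene here. EC libraries were at 0 except healthy replicate L (0.102 RPKM). In OP it was at 6.45, 0, 3.65 and 0 RPKM in healthy and at 27, 33, 5.88 and 19.7 RPKM in myeloma-bearing replicates D, G, I and J, and in SP at or below 0.0205 RPKM and at 16.1, 0, 0.0268, 25.6 and 0.986 RPKM. OP groups overlapped in 1 library pair, since healthy replicate L lay above myeloma-bearing replicate I. Its mesenchymal change of 2.47 ± 0.57 had an adjusted p of 0.173 and the difference of -2.50 ± 0.95 one of 0.668. The mesenchymal change was called in 6 of 41 alternative fits, by limma and by voom-limma on all 38 libraries and without SP myeloma-bearing E or G, OP healthy L or OP myeloma-bearing I. Kitl (chr10:100015615-100100416), stem cell factor, is made by endothelial and perivascular cells to maintain blood stem cells. It was at 117, 284, 188, 97.8 and 145 RPKM in healthy EC and at 65.9, 116, 76.6, 94.9 and 98.2 RPKM in myeloma-bearing EC. In mesenchymal cells it was at 0.0168 to 40.2 RPKM and at 0.0294 to 56.7 RPKM, with medians of 3.35 and 24.2 RPKM. The levels thus lay closer together in myeloma-bearing mice, and the difference of -2.71 ± 1.16 (adjusted p = 0.775) joined an EC change of -0.80 ± 0.93 with a mesenchymal change of 1.92 ± 0.70. With Cx3cl1 (-2.79 ± 1.12), these were the 3 of 24 chemokines and cytokines with an unadjusted p below 0.05, all negative (background 2.2%), and the list median was -0.11.

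**Figure D5:**
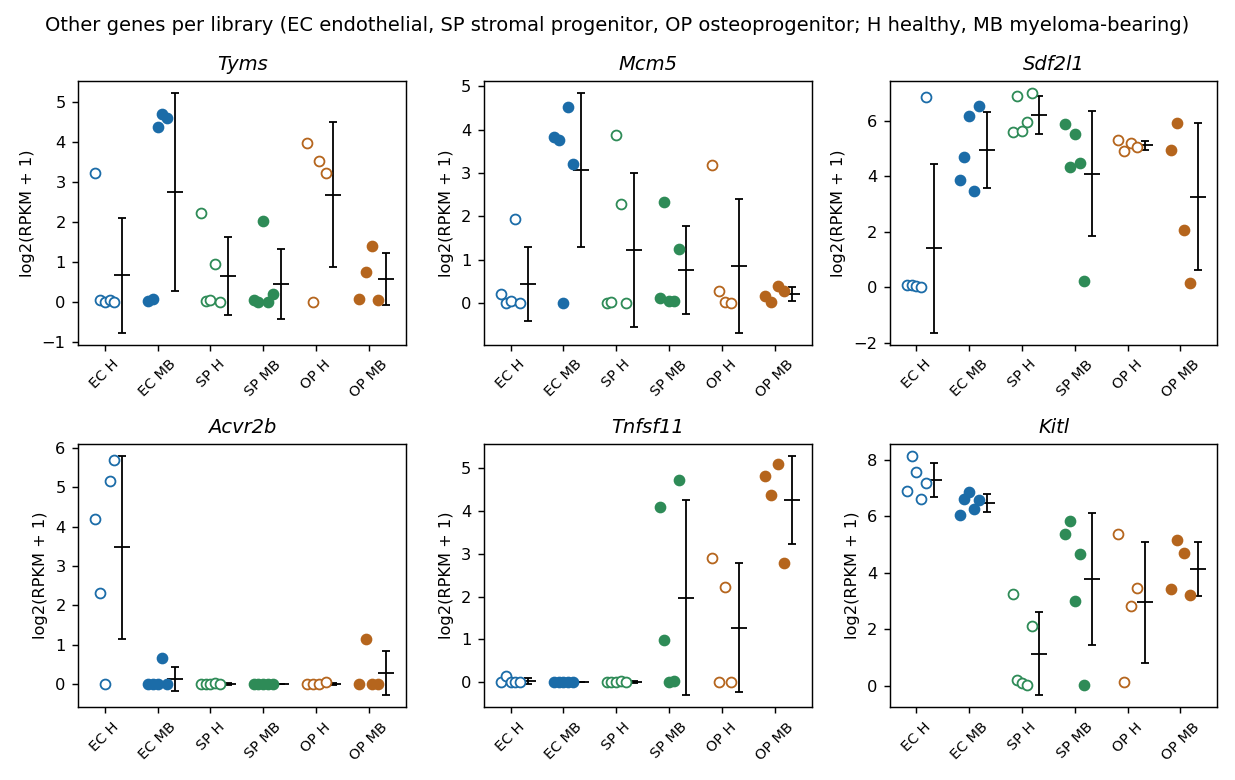
Level of 6 genes of other lists in each of the 28 libraries, as log2(RPKM + 1) on the y axis, by cell type and group of mice (open points healthy, filled points myeloma-bearing), with the mean and SD of each group as bars. Acvr2b is above 1 RPKM in 4 of 5 healthy and 0 of 5 myeloma-bearing endothelial libraries, and Tnfsf11 in mesenchymal libraries alone.

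No gene of the vessel lists was called in the contrast. Their counts at an unadjusted p below 0.05 are to be set against backgrounds of 3.84% positive and 2.2% negative. Of 23 sinusoidal and arterial genes, Gpr182 was positive and Fbln5 negative at an unadjusted p below 0.05, and the median was -0.06. Gpr182, a receptor of sinusoidal and lymphatic endothelium, was at 16.2, 75.0, 0, 115 and 1.73 RPKM in healthy EC and at 98.6, 239, 36.0, 187 and 20 RPKM in myeloma-bearing EC, and at most 0.830 RPKM in mesenchymal cells. The EC groups overlapped, and the difference was 2.71 ± 1.16 (adjusted p = 0.775). Fbln5, an elastic fibre protein, had a difference of -2.35 ± 1.01. Of 38 angiogenic receptors and ligands, 3 were negative (Esm1, Notch3 and Jag2) and 0 positive, with a median of -0.30. Esm1, a marker of tip cells at growing sprouts, was at 256, 249.6, 2.09, 7.43 and 74.7 RPKM in healthy EC and at 0.102, 0.0264, 79.2, 18.5 and 7.66 RPKM in myeloma-bearing EC. The EC groups overlapped widely, and the difference was -3.55 ± 1.60. Of 22 leukocyte adhesion genes, Itga1, a collagen-binding integrin, was negative (-3.07 ± 1.19), and the list median was -0.41. Sele, the inducible endothelial selectin, had the largest positive difference of that list (1.49 ± 0.91).

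Of 22 osteoblast genes, which make and mineralise bone matrix, 3 were positive (Spp1, Postn and Ibsp, background 3.84%) and 1 negative (Col1a2, background 2.2%) at an unadjusted p below 0.05. The list median was -0.23, from a median change of -0.02 in EC and 0.36 in mesenchymal cells, so the list and its 3 positive genes pointed in opposite directions. Spp1 (chr5:104435111-104441053), osteopontin, was at 12.6, 9.41, 6.29, 34.1 and 10.2 RPKM in healthy EC and at 503, 4.93, 16.9, 5984 and 6302 RPKM in EC replicates D, E, G, I and J of myeloma-bearing mice. Mesenchymal cells held 5136 to 30977 RPKM in healthy and 5577 to 29095 RPKM in myeloma-bearing mice. The difference of 4.82 ± 1.42 had an adjusted p of 0.529, and the gene passed in 1 of 41 alternative fits, without EC replicate E, at 4.93 RPKM the lower of 2 myeloma-bearing libraries (E and G) in or below the healthy range. With all 38 libraries its adjusted p was 0.179 by limma and 0.99 by voom-limma. Ibsp (chr5:104299287-104311472), bone sialoprotein, was at 53.6, 1.05, 0.984, 5.34 and 3.37 RPKM and at 0.603, 72.6, 24.9, 208 and 530.3 RPKM in the same EC groups, and at 699 to 7200.3 RPKM in mesenchymal cells (difference 3.22 ± 1.16). Col1a1, a collagen of bone that marks osteoprogenitors here, was at 0.373 to 3.95 RPKM in healthy EC and 1.16 to 28.6 RPKM in myeloma-bearing EC, with the highest value in replicate J, which also held the most Spp1 and Ibsp. Col1a2 went the other way in EC, from 15 to 41.3 RPKM to 1.71 to 36.0 RPKM, with a difference of -2.0 ± 0.62. The summed level of all 10 osteoprogenitor markers in EC was 16.4 to 104 RPKM (median 36.2) in healthy mice. In myeloma-bearing mice it was 20.9 to 155 RPKM (median 42.6), highest in replicate I. Bglap, the marker with the highest level, had EC medians of 15.4 and 19.1 RPKM. The part of mesenchymal transcripts in EC libraries was not tested. In the extracellular matrix list 3 of 42 genes (Mmp3, Adamts5 and Timp1) were positive (background 3.84%), and the median of 0.05 was -0.01 relative to all genes. The Mmp3 difference, 2.23 ± 1.02, turned negative with voom-limma.

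In the other lists, single genes past an unadjusted p of 0.05 are to be set against backgrounds of 3.84% positive and 2.2% negative. NF-kB feedback genes had the largest median, 0.80 (0.27 after median scaling), with 1 positive gene of 18, the mitochondrial superoxide dismutase Sod2 (2.84 ± 1.19), and 2 negative genes, Tnip1 (-3.14 ± 1.31) and Birc2 (-2.85 ± 1.37), so the list median and its lowest genes pointed in opposite directions. Glycolysis and hypoxia genes had a median of 0.41 (-0.12 after median scaling), yet the 2 of 29 at that threshold, Ldhb (-3.32 ± 1.37) and Epas1 (-1.66 ± 0.78), were negative. The median was -0.28 for 26 immediate-early genes, of which Klf6 was positive (1.96 ± 0.96), -0.41 for 13 heat shock genes with none at the threshold, and -0.72 for 21 genes of lipid handling with none at the threshold. Among the last, Adipoq, the adipocyte hormone adiponectin, had the lowest difference (-4.22 ± 2.11). Of 78 ribosomal protein genes 1 was positive and 4 were negative, with a median of -0.30, and of 98 genes of oxidative phosphorylation 2 were positive and 1 negative, with a median of -0.16.

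The 8 genes with the smallest p in each direction are given as values that did not pass. Towards EC they were Pydc4, Dhx32, AA467197, Ifit2, Heg1, Cpq, Elof1 and Lmbrd1, with differences of 3.65 to 5.76 and adjusted p from 0.285 to 0.358. Of all 16 genes in both directions, 15 passed with all 38 libraries in the fit (all but Cpq), and 14 by voom-limma on those libraries (all but Cpq and Ifit2). All 16 had been chosen for their small p in the same niche libraries. The added myeloma cell libraries change the spread and leave the limma differences as they were. These passes are therefore no independent support. Heg1 (chr16:33684384-33771576), a receptor that keeps endothelial junctions together, was at 1.03, 0.262, 3.24, 1.07 and 12.7 RPKM in healthy EC and at 24.4, 33.6, 12.2, 41.0 and 10.5 RPKM in myeloma-bearing EC. Mesenchymal cells held at most 5.09 RPKM in healthy and 3.28 RPKM in myeloma-bearing mice. The EC groups overlapped through healthy replicate O. Its EC change of 2.83 ± 0.70 (adjusted p = 0.13) and a mesenchymal change of -0.86 ± 0.53 gave a difference of 3.69 ± 0.88. Dhx32 (chr7:133720935-133782785), an RNA helicase relative, was at or below 0.0390 RPKM in healthy EC and at 4.25, 33, 4.85, 29.1 and 28.4 RPKM in myeloma-bearing EC, a called change of 3.94 ± 0.82 (adjusted p = 0.0499). Healthy mesenchymal libraries held 2.99 to 16.6 RPKM of it, so the level in myeloma-bearing EC came to overlap theirs. The same was seen for Elof1, a transcription elongation factor, at 0.216 to 69.6 RPKM in healthy EC, 48.4 to 196 RPKM in myeloma-bearing EC and 77.9 to 255 RPKM in healthy mesenchymal cells. Lmbrd1, a lysosomal protein needed for vitamin B12 use, was at 0.932 to 19.5, 36.0 to 139 and 10.4 to 75.7 RPKM in these groups, so healthy EC already overlapped the mesenchymal range.

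Away from EC the 8 genes were Snora78, Gab1, Acvr2b, Gpn3, Fam78b, D1Ertd622e, Crispld1 and Daglb, with differences of -3.34 to -7.11. Snora78, a small nucleolar RNA, had the largest difference of the 16 (-7.11 ± 1.51). It was at 6.30 to 502 RPKM in healthy EC and at 0 in 3 of 5 myeloma-bearing EC libraries. In mesenchymal cells it was at 0 to 18 RPKM and at 12.6 to 187 RPKM, so its mean was lower in myeloma-bearing EC and higher in myeloma-bearing mesenchymal cells. Gab1 (chr8:80764431-80880519), a docking protein below growth factor receptors, was at 5.11 to 118 RPKM in healthy EC and at 0 to 3.42 RPKM in myeloma-bearing EC (called, -3.87 ± 0.89, adjusted p = 0.0736, and called in 31 of 41 alternative fits). Gpn3 (chr5:122372508-122382771), a GTPase needed for RNA polymerase II assembly, had the smallest adjusted p of the EC change. It was at 35.5, 304, 140.4, 11.2 and 45.2 RPKM in healthy and at 0.153, 0.713, 1.05, 0.319 and 0.289 RPKM in myeloma-bearing mice (change -5.39 ± 0.85, adjusted p = 0.00553). Of 18 mesenchymal libraries 17 held it above 1 RPKM, with a change of -0.94 ± 0.64, and the difference was -4.45 ± 1.06. Crispld1, a secreted protein, was at 14.3, 141, 14.8, 21.5 and 61.6 RPKM in healthy EC and at 0.0134, 3.33, 29.8, 0.130 and 1.06 RPKM in myeloma-bearing EC, and at 9.96 to 182 RPKM in mesenchymal cells of both groups (EC change -3.45 ± 0.79, adjusted p = 0.0735).

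The other genes called in EC, also named after their values were seen, had changes of 1.67 to 5.48 where higher. Over the 22 EC calls the number of alternative fits that kept a call ran from 15 (Yy1) to 41 (Gpn3) of 41. Several were at or near 0 in healthy EC while healthy mesenchymal cells held them. Cisd2, an iron-sulphur protein of the endoplasmic reticulum and mitochondria, was at 1.19, 0.119, 0.119, 0.0164 and 30.5 RPKM in healthy EC and at 37.1, 23.9, 18.6, 28.7 and 61 RPKM in myeloma-bearing EC, against 19.1 to 94.9 RPKM in healthy mesenchymal cells. Its EC groups overlapped through replicate O. Yy1, a zinc finger transcription factor, was at 1.84, 0.0245, 0.165, 0.648 and 67.8 RPKM in healthy EC and at 44.5, 134, 27.6, 17.7 and 52.2 RPKM in myeloma-bearing EC. Here too replicate O alone reached the range of the myeloma-bearing libraries. The EC call of Yy1 was kept in 15 of 41 alternative fits and lost, among others, after median scaling, with robust eBayes and without most single libraries. Gtf2f2, a subunit of the general factor TFIIF, was at most 0.0776 RPKM in healthy EC, 5.33 to 21.2 RPKM in myeloma-bearing EC, and 0 to 23.2 RPKM in healthy mesenchymal cells. Cpq, a secreted carboxypeptidase, was at 0.0283 to 20.8 RPKM and at 23.4 to 43.6 RPKM in EC, and at 37.4 to 544 RPKM in the mesenchymal libraries. Enox2, an oxidase of the cell surface, was at 0 to 4.01 RPKM and at 7.12 to 84.8 RPKM in EC, and above 1 RPKM in 5 of 18 mesenchymal libraries. Disp2, a relative of the Hedgehog release factor Dispatched, was at most 0.00859 RPKM in healthy EC, at 3.24, 4.99, 3.41, 0 and 2.0 RPKM in myeloma-bearing EC, and at most 0.0236 RPKM in mesenchymal cells. It too passed the filter through 4 myeloma-bearing EC libraries alone, and its call was lost with the stricter filter and kept without one. The long noncoding RNA 1190002F15Rik (RefSeq name Lockd) was at most 0.407 RPKM in healthy EC and at 16.8 to 99.3 RPKM in myeloma-bearing EC, while mesenchymal libraries ran from 0 to 117 RPKM and from 0 to 144 RPKM. Cytl1, a secreted cytokine-like protein of cartilage, was lower, at 137 to 1976 RPKM in healthy and 19.5 to 217 RPKM in myeloma-bearing EC, against 9685 to 48935 RPKM in mesenchymal cells. For all 22 genes called in EC the endothelial minus mesenchymal difference had the sign of the EC change and an unadjusted p below 0.05, and the 2 measures share the EC libraries.

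Of the mesenchymal calls outside the interferon list, named after their values were seen, Wars2 stood out in SP, and Ube2ql1 and Pdlim1 in OP. Wars2, a mitochondrial tryptophanyl-tRNA synthetase, was at most 0.102 RPKM in healthy SP and at 6.55, 12.7, 3.98, 6.21 and 2.20 RPKM in SP of myeloma-bearing mice, and at most 0.357 RPKM in EC (mesenchymal change 1.62 ± 0.31, adjusted p = 0.0366; difference -1.53 ± 0.51). All 6 libraries through which it passed the filter were myeloma-bearing mesenchymal ones, and its call was lost with the stricter filter and kept without one. Its OP values were 0 in healthy and 0.157, 0.297, 0 and 2.25 RPKM in myeloma-bearing mice. Ube2ql1 was highest in myeloma-bearing OP and at most 0.0399 RPKM in EC (difference -1.65 ± 0.58), and its mesenchymal call was kept in 13 of 41 alternative fits and in neither voom-limma fit. Pdlim1, a cytoskeletal adaptor, was at 19.8, 40.5, 14.2 and 25.3 RPKM in healthy OP and at 0.0656, 0.0361, 0.0418 and 0.163 RPKM in myeloma-bearing OP. It was at 54.8 to 214 RPKM in every EC library, and at 67.3 to 121 and 14.5 to 95.3 RPKM in SP. Its mesenchymal change was -2.74 ± 0.40 (adjusted p = 0.000673) and the difference 2.21 ± 0.66 (adjusted p = 0.551). Voom-limma called this difference on 28 and on 38 libraries (adjusted p = 0.00142 on 38), and limma on 38 did not (adjusted p = 0.157). Snhg10, a small nucleolar RNA host gene, was listed at 0 in all 10 EC libraries. It was at up to 64.5 RPKM in healthy and up to 5.65 RPKM in myeloma-bearing mesenchymal libraries (change -3.16 ± 0.64, adjusted p = 0.0616, a call kept in 24 of 41 alternative fits).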

How the data were processed

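Libraries of 100 sorted cells were made by SmartSeq2 and sequenced as single-end reads. The authors aligned them with STAR 2.4.0 to GRCm38, counted reads on genes with featureCounts (Subread 1.4.5-p1), kept expressed genes and deposited RPKM values made with edgeR, in 1 table of 13260 genes and 38 libraries. RPKM leaves small differences of low genes subject to single reads, and each aliquot holds few cells, so genes can be absent from 1 library by sampling.

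Groups followed the labels. Values were taken as log2(RPKM + 1), 11713 genes that passed 1 RPKM in 4 or more of the 28 libraries were kept, and limma 3.58.1 in R 4.3.3 was fitted with 6 groups and trended empirical Bayes. A call needed an adjusted p (Benjamini-Hochberg) under 0.1 and a log2 difference over 1 in size. Differences are given ± SE, and on this scale they understate the change of low genes. All tests were two-sided, and the fits of the contrast were checked on simulated data. Whole reads were recovered from the RPKM steps for 100.0% of genes (tolerance 0.001) for voom-limma. Depth is the sum of these reads.

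Alternatives changed the pseudocount (0.1 or 4), the filter on low values, the p threshold, the set of libraries fitted, the replicate letter as a block, the empirical Bayes settings, library weights and the scaling, and left out each library in turn. By rule the genes named are the 8 with the smallest p in each direction, up to 3 at each end of every list, and the cell markers. Others were named after their values were seen. These are the genes said to be so, other list members with an unadjusted p below 0.05, and genes called in a component, such as Bst2. Hspa5, Xbp1, Ifit1 and Ifit3 were also named outside the rule. Not every gene of this rule is printed. Ribosomal and oxidative phosphorylation genes are given by count and median. The members, lists and tests were chosen with earlier results of these data known. Coordinates and promoters are from RefSeq annotation of GRCm38.p6.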

Additional observations from a re-analysis of the deposited data

Results flagged for a closer look

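In 176 groups of 4 or 5 libraries, taken over 30 genes, 39 had a highest or lowest library apart from the others by Dixon's test on log2(RPKM + 1), where chance alone gives about 1 in 20. Of a group with libraries at 0, 1 library with any reads can stand apart.

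Among interferon genes, most of the libraries that stood apart were in groups otherwise near 0. Ifit2 stood apart at 9.31 RPKM in SP myeloma-bearing G and 0.932 RPKM in OP healthy L. Mx2 stood apart at 0.0235 RPKM in EC healthy L, 20.2 RPKM in SP healthy L, 51.2 RPKM in SP myeloma-bearing J and 5.15 RPKM in OP healthy N. Zbp1 stood apart at 1.37 RPKM in EC healthy O. Ifi27l2a stood apart at 0.342 RPKM in OP healthy M. Plac8 stood apart at 11.3 RPKM in EC healthy N, 41.9 RPKM in EC myeloma-bearing D and 116 RPKM in SP healthy L. Ifit1 stood apart at 0.0608 RPKM in SP myeloma-bearing I. Ifit3 stood apart at 0.542 RPKM in EC healthy N, 10.2 RPKM in SP healthy N and 9.46 RPKM in OP healthy N. Of these, the values of SP myeloma-bearing I for Ifit1 and of EC healthy N for Ifit3 lay below the rest of their groups, and the others above.

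In other lists the same was seen. Tyms stood apart at 8.39 RPKM in EC healthy C and 3.06 RPKM in SP myeloma-bearing E. Mcm5 stood apart at 2.85 RPKM in EC healthy N and 8.03 RPKM in OP healthy L. Sdf2l1 stood apart at 114 RPKM in EC healthy O and 0.181 RPKM in SP myeloma-bearing I. Bmpr2 stood apart at 11.5 RPKM in SP myeloma-bearing G and 0.45 RPKM in OP myeloma-bearing G. Crispld1 stood apart at 82.0 RPKM in OP healthy O. The Sdf2l1 value of SP myeloma-bearing I and the Crispld1 value of OP healthy O were the lowest of their groups.

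The remaining values were near or below 1 RPKM. Pydc4 was apart at 0.0171 RPKM in SP healthy N, 0.0843 RPKM in SP myeloma-bearing J, 0.0292 RPKM in OP healthy L and 0.0736 RPKM in OP myeloma-bearing D. Acvr2b was apart at 0.578 RPKM in EC myeloma-bearing G, 0.0269 RPKM in SP healthy N, 0.032 RPKM in OP healthy O and 1.2 RPKM in OP myeloma-bearing J. Tnfsf11 was apart at 0.102 RPKM in EC healthy L and 0.0205 RPKM in SP healthy N. Wars2 was apart at 0.357 RPKM in EC myeloma-bearing J and 0.102 RPKM in SP healthy O. Car2 was apart at 0.025 RPKM in SP healthy O. Heg1 was apart at 0.205 RPKM in OP myeloma-bearing J. Gpr182 was apart at 0.519 RPKM in OP myeloma-bearing I.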

How the results depend on the processing

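For the endothelial minus mesenchymal change (0 calls), the count was 1 with a pseudocount of 0.1 (Dhx32), 1 with library weights (Pydc4), 5 by voom-limma on 28 libraries, 25 with all 38 libraries, 61 by voom-limma on 38, and 0 to 14 when 1 library was left out. Libraries whose loss gave calls were EC myeloma-bearing D (1), E (2) and I (2) and EC healthy M (1) and O (14). The EC change (22 calls) gave 10 at an adjusted p below 0.05, 8 with library weights, 13 after median scaling, 60 and 247 by voom-limma on 28 and 38 libraries, 154 with all 38 libraries, and 15 (without EC myeloma-bearing J) to 68 (without EC healthy O) with 1 library left out, including 38 without EC healthy C. The mesenchymal change (7 calls) gave 3 with a pseudocount of 0.1 and after scaling, 4 without a filter, with the stricter filter and at an adjusted p below 0.05, 11 with library weights, 21 with all 38 libraries by either fit, and 4 to 10 with 1 library left out. It fell to 4 without SP myeloma-bearing D, SP healthy L or O, OP myeloma-bearing G or OP healthy O. EC against SP (0 calls) gave 1 without a filter, 10 with all 38 libraries, 5 and 35 by voom-limma, and 0 to 4 with 1 library left out. EC against OP (0 calls) gave 1 with a pseudocount of 0.1, without a filter, without trend and with library weights, 25 with all 38 libraries, 3 and 15 by voom-limma, and 0 to 3 with 1 library left out. The cause of these shifts was not tested. For the contrast alone, where no gene had a call to lose, 3651 values of 90 named genes under alternatives held 62 calls and 12 changes of direction. The 22 EC calls were lost in 146 and kept in 756 of their values under alternatives, with only Gpn3 never lost, and the 7 mesenchymal calls were lost in 71 and kept in 216. Many of these fits left out a library of the other arm, which leaves the change itself as it is, so they are weak checks of these calls. The changes of direction were Hspa5 after median scaling (-0.084), Xbp1 after median scaling (-0.48), with the letter as a fixed block (-0.027) and in 4 of the fits with 1 library left out (whose values for Xbp1 ran from -0.41 without EC healthy M to 0.24 without EC healthy L), Mmp3 by voom-limma (-0.16 on 28 and -0.18 on 38 libraries) and Ifit3 by voom-limma (-0.52 and -0.53) and without EC healthy N (-0.15, the lowest of -0.15 to 1.29 with 1 library left out). With the letter as a fixed term the contrast kept 0 calls, and that fit gives no EC or mesenchymal change. With the letter as a random term the EC change gave 23 calls and the mesenchymal change 7. Deviations of the 26 pairs of libraries with the same letter correlated at -0.012 to 0.086, none above 0.1, and on that ground the letters were not treated as pairs. Yet 14 of 28 libraries correlated best, among libraries of other cell types, with one of their own letter, although few candidates shared it. This is a hint from the data, not the design, that letters share something, so the main fit may ignore a pairing. With 4 or 5 libraries a group, the median SE of the contrast was 1.10, which limits the size of difference that could be called.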
